A study of Mus musculus with 8 samples.

Results

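Rab GTPases are small membrane-bound switches that decide which transport vesicle meets which membrane. A Rab is loaded with GTP by an exchange factor, then recruits effectors such as tethers and motors, and is turned off by a GTPase activating protein, after which a GDP dissociation inhibitor carries it through the cytosol. In neurons Rab3 and Rab27 proteins sit on synaptic and secretory vesicles, while Rab5, Rab4 and Rab11 proteins route receptors through endosomes at the synapse. The genes described here are the 59 whose symbol in the array's annotation is Rab followed by a number, with or without a letter from a to d. The rule reads the symbol and no measured value, although it was set with earlier results of these data known. They are 59 of 31334 genes tested and of 19087 with a symbol. They were represented by 121 spots, 36 genes by 2 or more spots and 23 by 1. Each of the 59 had a value in every hybridisation.

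The RNA came from the nucleus accumbens of male mice, a ventral striatal region of the reward system. All animals went through conditioned place preference, in which a chamber is paired with an injection, and received either cocaine at 15 mg per kg or saline on days 2, 3 and 4. The labels give neither strain nor age. Each 2-colour array compared 1 cocaine mouse with 1 saline mouse, with cocaine in Cy5 on 2 arrays (group cocaine in Cy5) and saline in Cy5 on the other 2 (group saline in Cy5), and each title names other animals. Each array was read by an Axon and an Agilent scanner, whose 2 scans were averaged, so n is 4 hybridisations, and their number limits the precision. Values below are log2 ratios with cocaine as numerator and saline as denominator. The labels do not state this direction. Differences between the scanners showed that all columns run the same way between the treatments, but not which treatment is the numerator, and cocaine over saline is the reading adopted here. Under the opposite reading every cocaine ratio and every dye effect below turns its sign, so that Rab26 would be the highest and Rab40b the lowest of the 59, with 23 above 0 and 36 below. In whole tissue, fewer cells of a type and less RNA per cell cannot be told apart. Gene names rest on a spot layout inferred from the data.

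No Rab gene passed the threshold, a limma adjusted p below 0.05 over all genes. This was 0 of 59 against 8 of 31334 genes tested, or 0.0255%, and at an unadjusted limma p below 0.05 it was 2 of 59 against 6.04% of all genes. The 8 genes that passed had ratios at least 1.11 away from 0, beyond the range of the Rab genes, and a p that misses the threshold does not show that a gene did not differ. The largest ratio in either direction was that of Rab40b, at 0.49 ± 0.19, followed by Rab15 at 0.48 ± 0.19 and Rab5c at 0.38 ± 0.19. Rab26 was lowest at -0.30 ± 0.18, followed by Rab3b at -0.22 ± 0.18 and Rab39 at -0.21 ± 0.17. Errors are limma standard errors with n = 4, which lay between 0.17 and 0.21. The 59 ratios had a median of 0.040, with 36 above 0 and 23 below, against a median of 0.045 over all genes with a symbol, of which 11440 of 19087 lay above 0. The 95% limma intervals of the 59 genes reached at most from -0.67 (Rab26) to 0.89 (Rab40b), inside a change of 1 on the log2 scale. Limma takes most of each error from a variance shared over all genes, with 15.9 prior against 2 residual degrees of freedom. These intervals therefore do not bound a gene from the spread of its own 4 arrays.

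**Figure D1:**
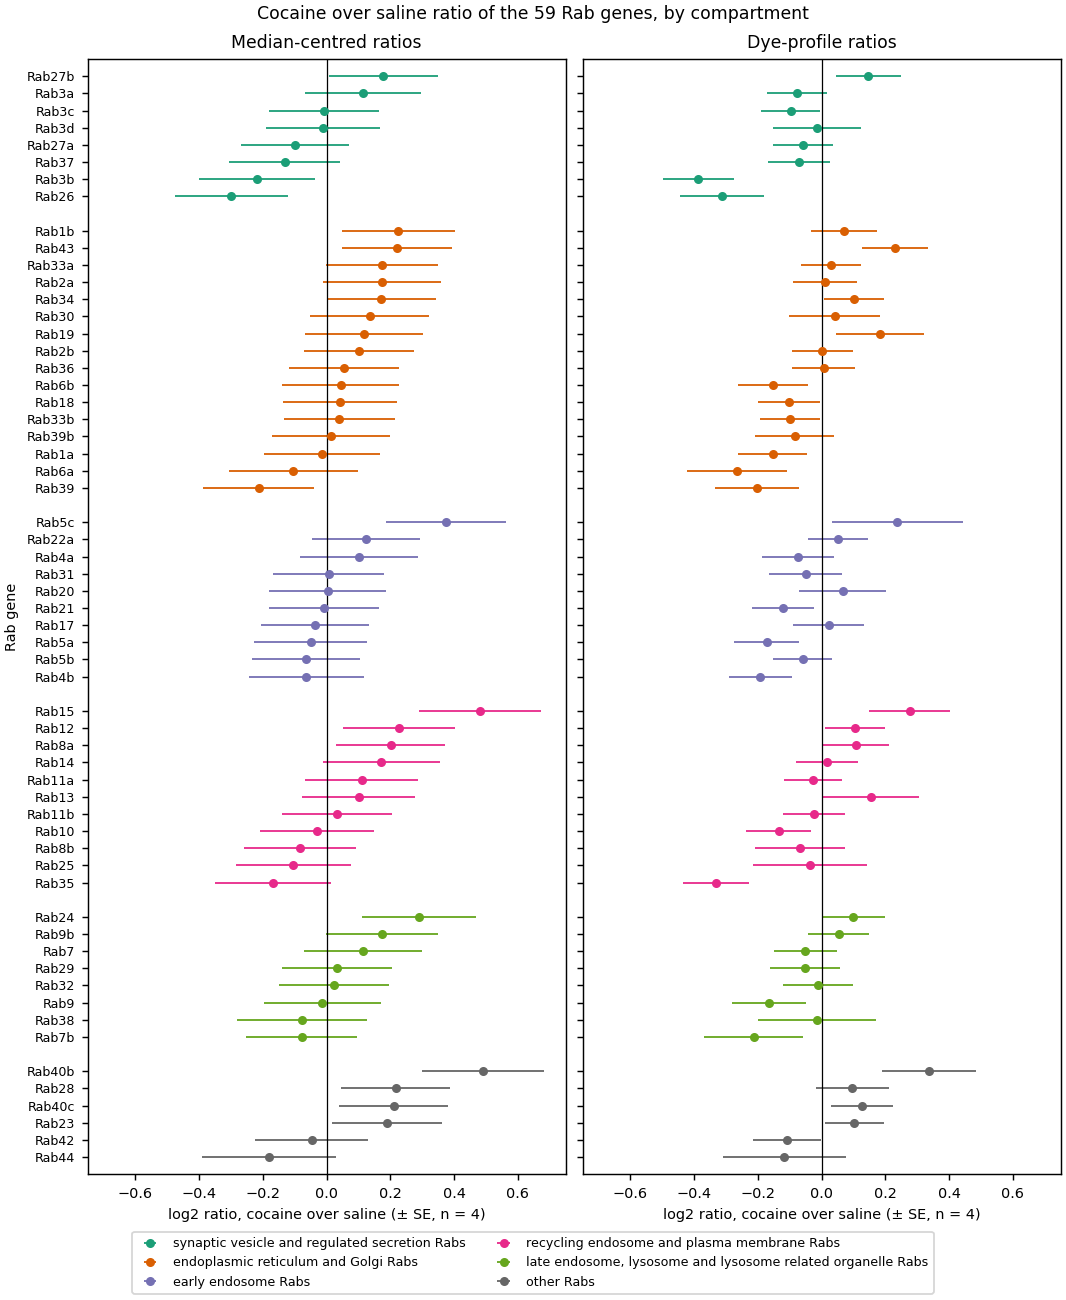
Each point is the log2 ratio of cocaine over saline of 1 Rab gene with its limma standard error (n = 4 hybridisations), after median centring (left) and after removal of the dye profile (right). Colours are compartments, and within each the genes are ordered by the centred ratio. Rab40b and Rab15 stand highest on both sides, and Rab26 and Rab3b are among the 3 lowest after removal of the profile.

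These ratios carried a strong dye effect. After centring each scan on its median, 51 of the 59 Rab genes had values of one sign in both arrays with cocaine in Cy5 and of the other sign in both arrays with saline in Cy5. No such count over all genes is given here, so it does not set the Rab genes apart. Over all rows, centred ratios of arrays with opposite dye orientation correlated at -0.90 to -0.75. In the limma fit the dye coefficient had an adjusted p below 0.05 in 47 of 59 Rab genes, 38 towards Cy5 and 9 towards Cy3, against 77.9% of all genes tested. Over genes with a symbol the split was 8023 towards Cy5 and 6482 towards Cy3, and over all genes tested it was 10819 and 13587. The dye effect was strongest for Rab15 at 1.67 (log2 of Cy5 over Cy3), Rab3a at 1.52 and Rab6b at 1.52, and most negative for Rab19 at -0.95, Rab44 at -0.83 and Rab25 at -0.71. The Rab median was 0.60, between those of 896 olfactory receptor genes, at -0.80, and of 65 cytosolic ribosomal protein genes, at 1.26. No channel intensities were used here, so no level was read from it.

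The cocaine ratio itself moved with the dye effect. Across all genes, the tenth with the most negative dye effect had a median cocaine ratio of -0.052, and the tenth with the most positive one had 0.17. Across the 59 Rab genes Pearson's r between dye effect and cocaine ratio was 0.38, a description over genes that share arrays and dyes. A second set of ratios was therefore made by fitting each scan along the mean dye profile and keeping the residuals, called dye-profile values here. In them r was -0.14, the Rab median was -0.027 against -0.003 for all genes with a symbol, and 25 Rab genes lay above 0 and 34 below. Again 0 of 59 passed, as did 0 of 31300 genes tested (0%), with 2 Rab genes at an unadjusted limma p below 0.05 against 7.26% of genes. The direction agreed between centred and dye-profile values for 46 Rab genes, 24 above 0 and 22 below. The profile is a mean over these same arrays and ties both orientations together, so agreement over 4 arrays there is not 4 independent agreements.

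**Figure D2:**
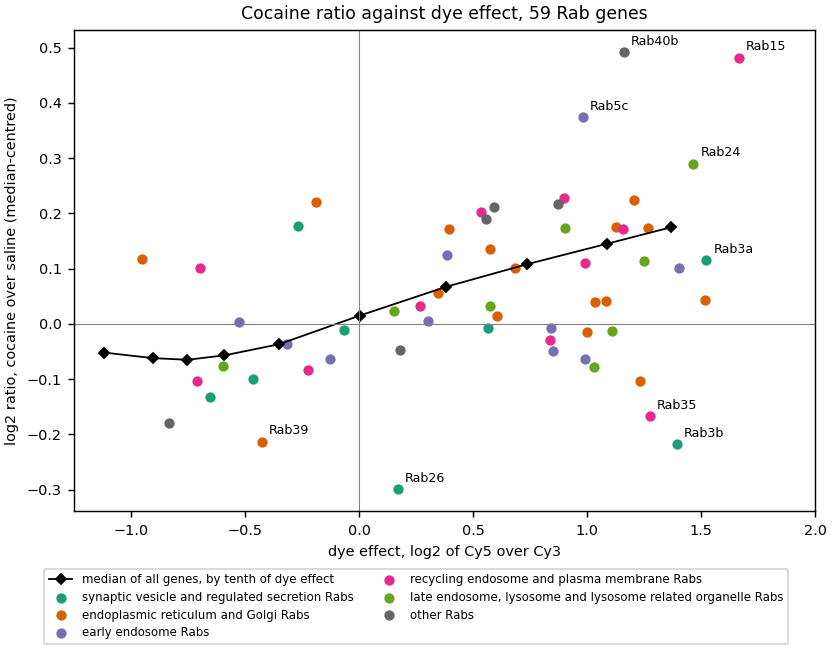
Median-centred log2 ratio of cocaine over saline (vertical) against the dye effect, log2 of Cy5 over Cy3 (horizontal), for the 59 Rab genes, coloured by compartment. The black line joins the medians of all genes in 10 equal bins of dye effect, from -0.052 at the left to 0.17 at the right, and Rab3b and Rab35 lie below it at dye effects of 1.39 and 1.27.

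The synaptic vesicle and secretory Rabs were 8 genes, Rab3a, Rab3b, Rab3c, Rab3d, Rab26, Rab27a, Rab27b and Rab37. Their median ratio was -0.056, with 6 of 8 below 0, and in dye-profile values it was -0.074, with 7 of 8 below 0. None passed. Of these, 4 were below 0 in each array in dye-profile values, namely Rab3a, Rab3b, Rab3c and Rab26. The share of all genes tested that did so was 9.29%. Of 19087 genes with a symbol, 7647 had a centred ratio below 0 and 9709 a dye-profile ratio below 0. Rab3a and Rab3c lay near 0, with dye-profile values from -0.17 to -0.031 and from -0.13 to -0.015. Whether these 8 genes differ from other genes was not tested.

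Rab3b, a Rab3 protein of regulated secretion, had centred ratios of 0.81 and 1.55 with cocaine in Cy5 and -1.51 and -1.71 with saline in Cy5. Its dye-profile ratios were -0.46 and -0.15 with cocaine in Cy5 and -0.59 and -0.34 with saline in Cy5, below 0 on each of the 4 arrays. Its mean was -0.22 ± 0.18 after centring (limma adjusted p = 0.899) and -0.39 ± 0.11 in dye-profile values (limma adjusted p = 0.67), the lowest dye-profile value among the Rab genes. Its 2 spots stood at -0.26 and -0.18. Leaving out replicate 1 of the cocaine in Cy5 arrays gave -0.032 after centring, and leaving out replicate 2 gave -0.40.

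Rab26, which links synaptic vesicles to autophagy, was the single Rab gene whose centred ratio had the same sign on all 4 arrays, at -0.16 and -0.10 with cocaine in Cy5 and -0.16 and -0.78 with saline in Cy5. Over all genes 1.84% had the same sign on all 4 arrays after centring. The saline in Cy5 replicate 2 value stood apart from the other 3, which lay close together. The mean was -0.30 ± 0.18 (limma adjusted p = 0.859) and, without that array, -0.14. Rab26 rested on 1 spot, whose identifier was not of the NM_ kind that marks RefSeq messenger RNAs. The dye effect of Rab26, 0.17, did not pass.

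Rab3a, the main Rab3 of synaptic vesicles, had centred ratios of 1.41 and 1.87 with cocaine in Cy5 and -1.09 and -1.72 with saline in Cy5. These turned sign with the dye orientation, and the dye-profile values were -0.068 and -0.042 with cocaine in Cy5 and -0.031 and -0.17 with saline in Cy5. Its ratio was 0.12 ± 0.18 after centring, with a 95% limma interval of -0.27 to 0.50, and -0.077 ± 0.094 in dye-profile values, so its direction depended on the normalization. Rab3c, a close relative on the same vesicles, had ratios of 0.42 and 0.70 with cocaine in Cy5 and -0.41 and -0.74 with saline in Cy5 and a mean of -0.008 ± 0.17. Its dye-profile mean was -0.097 ± 0.093. Rab3d, best known from secretory granules of exocrine cells, stood at -0.011 ± 0.18, with array values of -0.084 and -0.069 with cocaine in Cy5 and 0.38 and -0.27 with saline in Cy5 and its 2 spots at -0.15 and 0.12. With 1 array left out in turn the centred ratios ran from -0.041 to 0.27 for Rab3a, from -0.091 to 0.075 for Rab3c and from -0.17 to 0.15 for Rab3d, lowest for each without saline in Cy5 replicate 1 and highest without replicate 2.

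Rab27a, which docks granules at the plasma membrane, had centred ratios of -0.48 and -0.65 with cocaine in Cy5 and 0.35 and 0.38 with saline in Cy5 and a mean of -0.10 ± 0.17. Rab27b, its paralogue on neuronal and platelet secretory vesicles, had ratios of -0.13 and -0.050 with cocaine in Cy5 and 0.35 and 0.54 with saline in Cy5 and a mean of 0.18 ± 0.17. The Rab27b ratios lay just below 0 with cocaine in Cy5 and above it with saline in Cy5, and its dye-profile mean was 0.15 ± 0.10. Those array values are means over 3 unlike spots, with dye effects of -1.36, -0.19 and 0.74. The cocaine ratios of the same spots were 0.11, 0.18 and 0.25. Rab37, a Rab of mast cell and endocrine granules, stood at -0.13 ± 0.17. None of these 3 passed, with limma adjusted p-values of 0.948, 0.911 and 0.936.

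**Figure D3:**
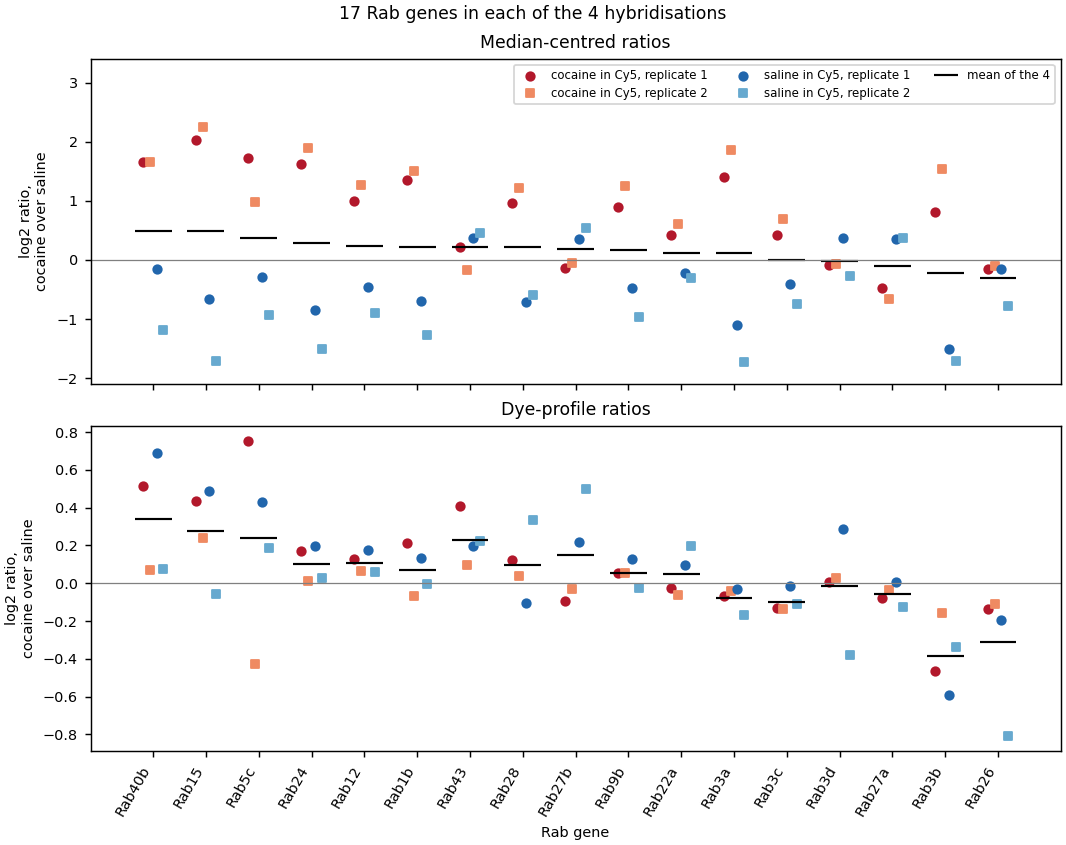
Log2 ratios of cocaine over saline of 17 Rab genes on each of the 4 arrays, median-centred (top) and in dye-profile values (bottom), with red for cocaine in Cy5, blue for saline in Cy5 and a black bar for the mean. In the top panel the red and blue points of most genes lie on opposite sides of 0, while Rab26 is below 0 on all 4 arrays. In the bottom panel Rab40b is above 0 and Rab3b below 0 on all 4.

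Rab40b and Rab40c carry a SOCS box, through which they join cullin ubiquitin ligases, and were grouped here with 4 further Rabs outside the main transport classes. Rab40b had centred ratios of 1.66 and 1.65 with cocaine in Cy5 and -0.15 and -1.19 with saline in Cy5. The values with cocaine in Cy5 were high and alike, and with saline in Cy5 replicate 1 lay near 0 while replicate 2 was well below it. Its dye-profile ratios were 0.51 and 0.071 with cocaine in Cy5 and 0.69 and 0.077 with saline in Cy5, above 0 on each array but several times larger in replicate 1 of each orientation. The mean was 0.49 ± 0.19 after centring (limma adjusted p = 0.777, unadjusted p = 0.0189) and 0.34 ± 0.15 in dye-profile values (limma adjusted p = 0.67). Of the saline in Cy5 arrays, leaving out replicate 1 gave 0.23 and leaving out replicate 2 gave 0.75. Its 2 spots stood at 0.42 and 0.56.

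Promoters are shown for Rab40b and Rab3b, the highest and the lowest Rab gene in dye-profile values. The windows are 300 bases around the annotated start, most of it upstream, are taken from RefSeq on GRCm38.p6, and lie at chr11:121388202-121388501 on the minus strand and chr4:108878820-108879119 on the plus strand. Capitals mark the motifs that were searched on both strands, namely CRE (TGACGTCA), its core TGACG, AP-1 (TGANTCA), Egr (GCGNGGGCG), E-box (CACGTG) and GC box (GGGCGG). The CRE contains the core, and overlapping matches were counted.
Rab40b: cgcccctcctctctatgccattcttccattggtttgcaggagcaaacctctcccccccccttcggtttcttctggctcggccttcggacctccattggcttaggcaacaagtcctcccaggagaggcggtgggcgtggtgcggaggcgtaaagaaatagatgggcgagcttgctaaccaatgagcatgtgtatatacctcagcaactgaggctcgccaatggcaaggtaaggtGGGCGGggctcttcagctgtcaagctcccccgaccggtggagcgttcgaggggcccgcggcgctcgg
Rab3b: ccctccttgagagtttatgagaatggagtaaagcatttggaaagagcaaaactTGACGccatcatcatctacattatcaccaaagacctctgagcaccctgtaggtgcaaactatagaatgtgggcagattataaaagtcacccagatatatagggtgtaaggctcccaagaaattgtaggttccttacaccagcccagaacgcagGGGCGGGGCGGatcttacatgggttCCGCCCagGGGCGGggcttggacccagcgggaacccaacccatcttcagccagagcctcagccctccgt
The Rab40b window held 1 GC box and the Rab3b window held 4 GC boxes and 1 CRE core. None of the other 4 motifs matched in either window. GC boxes occurred in 41 of 60 Rab promoters and in 35.7% of 32851 promoters in the table, and the CRE core in 26 of 60 and 20.8%. The 60 promoters belong to the 48 Rab genes that had a promoter there, and the other Rab genes had none. Among the 60 Rab promoters and over the table, the CRE occurred in 2 and 1.79%, AP-1 in 3 and 7.81%, Egr in 4 and 5.55% and the E-box in 6 and 7.15%. A match describes the letters of a window and is not a binding site.

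The others of that group were Rab40c at 0.21 ± 0.17, Rab28, a Rab of photoreceptor cilia, at 0.22 ± 0.17, Rab23, a negative regulator of Hedgehog signalling, at 0.19 ± 0.17, Rab42 at -0.047 ± 0.18 and Rab44 at -0.18 ± 0.21. Rab28 had centred ratios of 0.96 and 1.22 with cocaine in Cy5 and -0.72 and -0.60 with saline in Cy5. Rab40b, Rab40c and Rab23 were above 0 on each array in dye-profile values. The spots of Rab40c and of Rab23 had dye effects of both signs, from -0.142 to 1.325 and from -0.313 to 1.009. Over the 59 Rab genes 7 were above 0 on all 4 arrays in those values against 9.73% of all genes, and 10 were below 0 on all 4 against 9.29%. The 7 above were Rab40b, Rab40c, Rab23, Rab43, Rab34, Rab12 and Rab24. The 10 below were Rab3a, Rab3b, Rab3c, Rab26, Rab35, Rab1a, Rab18, Rab4b, Rab5a and Rab21. Their dye-profile ratios ran from 0.10 to 0.34 and from -0.39 to -0.077.

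The recycling endosome and plasma membrane Rabs were 11 genes with a median of 0.10 after centring and of -0.025 in dye-profile values. Rab15, a neuron-enriched regulator of endocytic recycling, had centred ratios of 2.04 and 2.26 with cocaine in Cy5 and -0.66 and -1.71 with saline in Cy5. Its mean was 0.48 ± 0.19 (limma adjusted p = 0.784, unadjusted p = 0.0218), and it had the strongest dye effect of all 59. In dye-profile values it stood at 0.43 and 0.24 with cocaine in Cy5 and 0.49 and -0.056 with saline in Cy5, with a mean of 0.28 ± 0.13 (limma adjusted p = 0.67). Replicate 2 with saline in Cy5 was the low array in both versions. Leaving out replicate 1 with saline in Cy5 gave 0.22, and leaving out replicate 2 of that orientation gave 0.75.

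Rab12, which directs cargo from recycling endosomes to lysosomes and is a substrate of the kinase LRRK2, had ratios of 0.99 and 1.26 with cocaine in Cy5 and -0.45 and -0.89 with saline in Cy5 and a mean of 0.23 ± 0.17, with its 4 spots between 0.087 and 0.37. The LRRK2 substrates Rab8a and Rab10 stood at 0.20 ± 0.17 and -0.030 ± 0.18. Rab35, a Rab of fast endocytic recycling, had centred ratios of 0.75 and 1.47 with cocaine in Cy5 and -1.28 and -1.61 with saline in Cy5 and a mean of -0.17 ± 0.18. Its dye-profile values were -0.48 and -0.20 with cocaine in Cy5 and -0.38 and -0.26 with saline in Cy5, below 0 on each array, with a mean of -0.33 ± 0.10 (limma adjusted p = 0.67, unadjusted p = 0.0213). Rab35 and Rab3b were the 2 Rab genes past an unadjusted p of 0.05 in dye-profile values, while Rab40b and Rab15 were those after centring. Rab11a and Rab11b, which return receptors to the cell surface, stood at 0.11 ± 0.18 and 0.033 ± 0.17, and Rab14, Rab13, Rab8b and Rab25 lay between -0.10 and 0.17.

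The endoplasmic reticulum and Golgi Rabs were the largest class, 16 genes with 13 above 0 and a median of 0.078 after centring. In dye-profile values 9 were above 0 and the median was 0.005, so the count of genes above 0 depended on the normalization. Rab1b, which carries cargo from the endoplasmic reticulum to the Golgi, had centred ratios of 1.35 and 1.51 with cocaine in Cy5 and -0.70 and -1.26 with saline in Cy5 and a mean of 0.23 ± 0.18, and its dye-profile mean was 0.070 ± 0.10. Its centred ratio was 0.083 when replicate 1 with saline in Cy5 was left out and 0.37 when replicate 2 was. Rab43, a Golgi Rab that also sorts G protein coupled receptors, had no dye effect past the threshold and had ratios of 0.22 and -0.16 with cocaine in Cy5 and 0.37 and 0.46 with saline in Cy5 and a mean of 0.22 ± 0.17. Its 4 spots all had cocaine ratios above 0, between 0.079 and 0.36, but their dye effects ran from -0.81 to 0.30. The dye effect of Rab43 as a gene is thus a mean over spots of opposite sign. Its dye-profile mean was 0.23 ± 0.10. The scanners differed for Rab43, at 0.038 with Agilent scans only and 0.40 with Axon scans only, and the ratio was 0.12 when replicate 1 with cocaine in Cy5 was left out.

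Rab1a, the paralogue of Rab1b, stood at -0.015 ± 0.18, and Rab6a and Rab6b, of retrograde transport through the Golgi, at -0.10 ± 0.20 and 0.044 ± 0.18. Rab39 was lowest of the class at -0.21 ± 0.17 (limma adjusted p = 0.898). The other 10, Rab2a, Rab2b, Rab18, Rab19, Rab30, Rab33a, Rab33b, Rab34, Rab36 and Rab39b, lay between 0.015 and 0.17.

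Early endosome Rabs were 10 genes with a median of -0.003, 5 above 0 and 5 below. Rab5c, 1 of 3 Rab5 proteins that drive early endosome fusion, had centred ratios of 1.73 and 0.98 with cocaine in Cy5 and -0.28 and -0.93 with saline in Cy5 and a mean of 0.38 ± 0.19 (limma adjusted p = 0.834). In dye-profile values it ranged from -0.43 to 0.75 between the 2 arrays with cocaine in Cy5, so its spread exceeded its mean of 0.24 ± 0.21. Leaving out replicate 1 of the cocaine in Cy5 arrays gave 0.19 after centring and leaving out replicate 2 gave 0.56, while leaving out replicate 1 or 2 of the opposite orientation gave 0.21 or 0.54. Rab22a, of sorting endosomes, had ratios of 0.42 and 0.60 with cocaine in Cy5 and -0.22 and -0.31 with saline in Cy5 and a mean of 0.12 ± 0.17. These Rab22a values are means over 3 unlike spots, with dye effects of 0.49, -0.43 and 1.10 and cocaine ratios of 0.012, 0.11 and 0.25. With the median of the probes the Rab22a ratio was 0.012. Rab5a and Rab5b stood at -0.050 ± 0.18 and -0.064 ± 0.17, and Rab4a and Rab4b, of the fast recycling route, at 0.10 ± 0.18 and -0.064 ± 0.18. Rab17, Rab20, Rab21 and Rab31 lay between -0.036 and 0.006.

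Rab5a had 12 spots, of which 11 are annotated to the same transcript. Their centred ratios were 0.62 ± 0.11 and 1.31 ± 0.10 (SD over 11 spots) with cocaine in Cy5 and -0.93 ± 0.11 and -1.13 ± 0.082 with saline in Cy5. Averaged over the 4 arrays, the 11 spots gave a cocaine ratio of -0.033 ± 0.040 (SD), between -0.10 and 0.021. The remaining spot, whose identifier was not of the NM_ kind, had the opposite dye effect, -0.78 against a mean of 0.998, and a cocaine ratio of -0.24. In dye-profile values that spot stood at -0.18 and the 11 others at -0.17 ± 0.039. Repeated spots also served to choose the spot layout, so their likeness is no separate support for it.

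**Figure D4:**
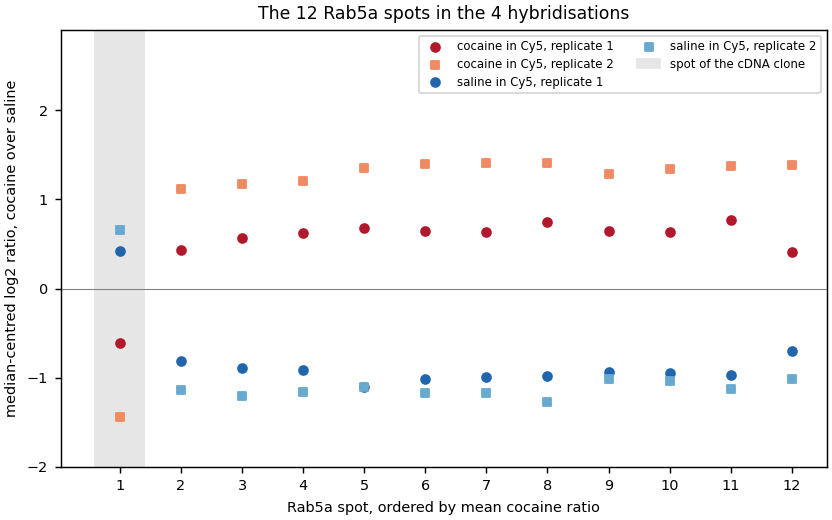
Median-centred log2 ratios of the 12 Rab5a spots on each of the 4 arrays, ordered by their mean, with red for cocaine in Cy5 and blue for saline in Cy5. The shaded spot has the opposite signs from the 11 spots of the transcript, whose values on each array stay within a narrow band. Its identifier is not of the NM_ kind, and the legend's name for it, cDNA clone, was not checked.

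Of the 36 Rab genes with several spots, 14 had spots with cocaine ratios of opposite sign and 12 had spots with dye effects of opposite sign. No such counts over all genes are given here, so these do not show that Rab spots differ more or less than others. The median range between the spots of a gene was 0.15 for the cocaine ratio and 0.51 for the dye effect. The 4 spots of Rab11b had dye effects from -0.60 to 1.505 and cocaine ratios from -0.066 to 0.25. The 3 spots of Rab34, a Golgi Rab that positions lysosomes, had cocaine ratios from -0.18 to 0.44, and those of Rab8b, of exocytic transport, from -0.38 to 0.081. When each spot was fitted on its own, 0 of the 121 Rab spots passed.

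Late endosome and lysosome Rabs were 8 genes with a median of 0.028 after centring and -0.033 in dye-profile values. Rab24, a Rab of autophagy, had centred ratios of 1.62 and 1.89 with cocaine in Cy5 and -0.85 and -1.50 with saline in Cy5 and a mean of 0.29 ± 0.18 (limma adjusted p = 0.866). Its dye effect was among the 4 strongest, and its dye-profile mean was 0.10 ± 0.098. The centred Rab24 ratio was 0.13 when replicate 1 with saline in Cy5 was left out and 0.45 when replicate 2 was. Rab9b, of transport from late endosomes to the Golgi, had ratios of 0.89 and 1.26 with cocaine in Cy5 and -0.48 and -0.97 with saline in Cy5 and a mean of 0.17 ± 0.18. Rab7, which drives fusion with lysosomes, stood at 0.11 ± 0.18, Rab7b at -0.078 ± 0.17 and Rab9 at -0.013 ± 0.18. Rab29, Rab32 and Rab38, a group of lysosome-related organelles, stood at 0.033 ± 0.17, 0.023 ± 0.17 and -0.077 ± 0.20.

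The regulators and effectors of Rabs were taken from 4 lists of 121 genes, of which 115 were measured. None passed, and 85 of 115 had centred ratios above 0, with a median of 0.077, beside 11440 of 19087 and a median of 0.045 for all genes with a symbol. In dye-profile values 57 of 115 were above 0, with a median of -0.002, beside 9378 of 19087. Among 34 exchange factors (median 0.067, 23 above 0), Rin1, an activator of Rab5, stood at 0.39 ± 0.19 and Dennd1a, an activator of Rab35, at 0.34 ± 0.17. Among 34 GTPase activating proteins (median 0.10, 24 above 0), Tbc1d20, which inactivates Rab1, stood at 0.37 ± 0.18 and Tbc1d22a at 0.34 ± 0.18. Among 40 effectors (median 0.072, 32 above 0), Sytl1, which binds Rab27, stood at -0.50 ± 0.20 and Rilp, which binds Rab7, at 0.36 ± 0.18. Among 7 genes of prenylation and recycling (median 0.039, 6 above 0), Chml, an escort protein, stood at -0.32 ± 0.18 and Rabggtb, a subunit of the Rab prenylating enzyme, at 0.13 ± 0.17. Limma adjusted p-values of these 8 lay between 0.784 and 0.937.

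Cell type markers on the same arrays also had ratios away from 0. Medium spiny neuron markers were above 0 for 12 of 12 measured genes, with a median of 0.33 and none past the threshold. Beside them, 11440 of 19087 genes with a symbol and 65 of 65 cytosolic ribosomal protein genes (median 0.15) were above 0. The median dye effect was 1.41 for these markers and 1.26 for the ribosomal genes. In dye-profile values the medium spiny neuron markers were again above 0 for 12 of 12, with a median of 0.15. Their dye-profile medians were 0.28 and 0.032 with cocaine in Cy5 and 0.24 and 0.085 with saline in Cy5. These were higher in replicate 1 of each orientation, as were the dye-profile values of Rab40b, Rab15 and further Rab genes, but not of all. Replicate numbers pair no arrays, so a shared number has no meaning in the design. Cortical projection neuron markers were below 0 for 11 of 13 genes, with a median of -0.35 and dye-profile medians of -0.31 and -0.56 with cocaine in Cy5 and -0.44 and -0.39 with saline in Cy5. Tbr1, Nrn1 and Neurod6 passed after centring, at -1.45 ± 0.18, -1.71 ± 0.24 and -1.13 ± 0.18, and no marker passed in dye-profile values. Oligodendrocyte markers were below 0 for 8 of 9 genes, with dye-profile medians of -0.53 and 0.15 with cocaine in Cy5 and -0.44 and -0.12 with saline in Cy5. Medians were 0.093 for 8 astrocyte, 0.022 for 8 microglia and -0.034 for 7 endothelial markers, with none past the threshold. The part of these markers in the Rab values was not tested.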

How the data were processed

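The authors deposited log2 ratios of both channels, 44290 rows for each of 8 scans. The scanners are named per the labels. How images were read, corrected for background and normalized before deposit is not given in the sources used here, and base 2 was inferred from the range of values. Stop values (absolute log2 above 16, 4 to 37 per scan) were set to missing. Axon minus Agilent differences correlated at 0.51 to 0.52 for array pairs with equal dye orientation and at -0.54 to -0.49 for the other pairs, so all columns run the same way between treatments as deposited. Which treatment is the numerator is not settled by this, and cocaine over saline was adopted.

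Probes were placed with a staggered grid layout inferred from the data. Dye effects of spots of the same accession then correlated at 0.46 (8409 pairs, accessions spotted 2 to 9 times) and 0.92 (38 accessions spotted at least 10 times), against -0.002 and -0.029 read row by row. Because repeated spots also served to choose this layout, these correlations are no independent check of it. All 59 Rab genes matched the gene table by identifier, with the same symbol.

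Each scan was centred on its median, spots of a symbol were averaged, and a hybridisation took the mean of its 2 scans. Limma 3.58.1 (R 4.3.3) fitted cocaine and dye coefficients, leaving 2 residual degrees of freedom, with Benjamini-Hochberg adjustment over 31334 genes, two-sided. Dye-profile values are residuals of a loess (span 0.3, 4 iterations) of each scan along the mean Cy5 over Cy3 ratio of the 4 Agilent scans, centred again on the median. The fit was tested on simulated data. The Rab genes, the lists, the tests and the rule for named genes were chosen with earlier results of these data known. That rule took Rab3a to Rab3d, Rab27a, Rab27b, the 2 members of smallest p in each class, any past the threshold and any with the same sign on all 4 arrays, and 2 partner genes per list. Replicate numbers follow accession order and pair no arrays. Further genes in the text were added after their values were seen. The classes are broad and a Rab can act in several compartments.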

Additional observations from a re-analysis of the deposited data

Results flagged for a closer look

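In dye-profile values 1 array stood apart from the other 3 for 2 Rab genes. For Rab26 the value was -0.81 on saline in Cy5 replicate 2 against -0.19 to -0.11 on the others, a gap of 0.88 of the whole range. For Rab10 it was 0.083 on cocaine in Cy5 replicate 2 against -0.22 to -0.19, a gap of 0.90 of the range. The same was asked of each of the 59 Rab genes, where about 3.0 such cases arise by chance.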

How the results depend on the processing

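The number of Rab genes that passed limma's adjusted p of 0.05 was 0 under each alternative that was run, with the lowest adjusted p among them 0.277, for Rab40b without saline in Cy5 replicate 2. Over all genes 8 passed in the centred values. With each spot on its own 120 of 44289 spots passed, a count of spots and not of genes. Among genes 0 passed in dye-profile values (2272 at an unadjusted limma p below 0.05) and 0 with equal spread of the arrays (1982). The number was 0 with Axon scans only (1585) and 0 with no dye coefficient (24). It was 20 with Agilent scans only, 34 with the median of the probes and 227 with a variance trend along the dye profile. The number of genes was 25 with genes with a symbol only, an alternative chosen after seeing the data. It lay between 66 and 288 when 1 array was left out, where 1 residual degree of freedom remains and the lone array of an orientation is assumed to vary like the others. The median of the Rab genes lay between -0.038 and 0.15 with 1 array left out, at -0.038 without cocaine in Cy5 replicate 2 and at 0.15 without cocaine in Cy5 replicate 1, and was -0.014 with equal spread. The number of Rab genes with a dye effect was 47 with both scanners and 6 with Axon scans only, and the cause was not tested. Of the 15 alternatives for a named Rab gene, 4 leave its ratio as it is by construction (no dye coefficient, value in all 8 scans, variance trend, genes with a symbol only), and spot choices leave genes of 1 spot as they are, so 8 to 11 gave another value. Among those, Rab3a and Rab3c changed sign under 3 each and Rab3d under 4, and the other 14 named genes did not change sign. With 1 array left out, Rab12 was 0.12 and Rab9b 0.052 without saline in Cy5 replicate 1, Rab9b was 0.30 without replicate 2 of that group, and Rab22a was 0.078 and Rab27a -0.057 without cocaine in Cy5 replicate 2. The median shift of all genes under any alternative was below 0.1. Each array already sets 1 cocaine mouse against 1 saline mouse, so its ratio is a difference within a pair, and no further block by replicate number was fitted because those numbers follow accession order.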

Other observations

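The 2 scanners read the same labelled RNA and gave different extremes among the Rab genes. With Agilent scans only the highest was Rab15 at 0.52 and the lowest Rab38 at -0.30. With Axon scans only these were Rab40b at 0.48 and Rab26 at -0.43. Rab26 stood at -0.17 with Agilent scans only. Across all rows the raw ratios of the 2 scans of an array correlated at 0.61 to 0.83.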
